A study of Mus musculus with 9 samples.

Results

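The genes described here are 43 DNA replication and G1/S genes, taken by symbol: the subunits of the MCM2-7 and GINS complexes, the clamp PCNA and its RFC loader, replicative polymerases and primase, licensing factors, enzymes that supply deoxynucleotides, E-type cyclins, E2F1, and factors of chromatin duplication. All 43 were found among 22195 annotated genes, and all 43 passed the filter on low counts, which left 12980 genes for testing. They were followed in 9 bulk RNA libraries from skin tumors of C57BL/6J mice, grown under the skin from YUMMER1.7 cells, with 3 libraries each from mice given an anti-B7-H3 antibody, an anti-PD1 antibody or an IgG isotype control. Treatment began at a tumor size of 20 to 50 mm3, and the mice were immunocompetent. YUMMER1.7 is a line made by ultraviolet irradiation from a Braf-mutant mouse melanoma that lacks Cdkn2a, and these changes are shared by all 3 groups. The antibodies bind B7-H3 and PD-1, immune checkpoint proteins. The labels give no age or sex of the mice, no antibody dose and no time of collection. Whether the 3 libraries of a group are 3 mice is not stated. Each p-value therefore measures the spread between the libraries alone, and that spread may be technical.

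A cell that leaves G1 for S phase first loads MCM2-7 helicases onto origins with the help of ORC, CDC6 and CDT1. Cyclin E with its kinase, and factors such as MCM10, CDC45 and GINS, turn the loaded helicases on, and polymerases held by PCNA then copy both strands. The E2F transcription factors, held back by RB until G1 cyclins act, are known for driving many of these genes together, so their mRNA is widely read as a mark of cycling cells.

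No member passed the threshold of 0.05 on the Benjamini-Hochberg adjusted p of edgeR's quasi-likelihood test in any of the 3 comparisons. Between anti-PD1 and IgG tumors, 34 of 43 members had a positive log2 fold change, as did 50.4% of all tested genes, with a median of 0.31 against 0.01 for all tested genes, and Pcna was the furthest at 0.77 ± 0.24 (SE; 1.71-fold; adjusted p = 0.142). Between anti-B7-H3 and IgG tumors, 31 of 43 were positive, where 53.3% of all tested genes were, with a median of 0.15 against 0.03 for all tested genes, and Chaf1b had the highest change at 0.51 ± 0.22 (1.43-fold; adjusted p = 0.423). Between anti-B7-H3 and anti-PD1 tumors, 12 of 43 were positive, where 51.1% of all tested genes were, with a median of -0.12 against 0.01, and the smallest adjusted p was 0.755. Only a small part of all genes passed the same threshold. With anti-B7-H3 against IgG, 0.0077% of all tested genes were called higher and 0.601% lower. With anti-PD1 against IgG, 0.0077% were called higher and 0.401% lower, and between the antibodies 0% were called in either direction. At an unadjusted p under 0.05 in the same test, 2 members were higher and 0 lower for anti-B7-H3 against IgG, where 3.59% of all genes were higher and 6.96% lower. With anti-PD1 against IgG, 9 members were higher and 1 was lower by that measure, where 7.68% and 10.9% of all genes were. Between the antibodies, 0 members reached it in either direction, where 3.93% of all genes were higher and 2.55% lower.

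Groups that do not overlap, library by library, give another view of the same values. With anti-PD1, 17 of the 43 members lay above IgG in every library and 2 lay below, where 11.1% and 11.9% of all genes did. With anti-B7-H3, 4 members lay above IgG in every library and 0 below, where 7.73% and 8.56% of all genes did. Set against anti-PD1, anti-B7-H3 libraries lay above in 1 member and below in 10, where 7.57% and 7.89% of all genes did. Members move together across libraries, so these counts do not rest on independent genes, and both antibody groups are set against the same 3 IgG libraries.

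The IgG libraries stand apart from the other 6 in what was sequenced. Estimated reads per library came to 10105153 to 15447583 with anti-B7-H3, 8627930 to 11256181 with anti-PD1 and 13624172 to 27288766 with IgG, but 12 genes that hold the major satellite repeat took 5.24 to 28.2% of them with anti-B7-H3, 14.6 to 38.2% with anti-PD1 and 87.0 to 92.0% with IgG. The members together had 21240 to 46409 reads with anti-B7-H3, 15998 to 31457 with anti-PD1 and 2075 to 9832 with IgG, so the IgG values are the least precise. As a share of reads outside the satellite genes, the members took 0.290 to 0.322% with anti-B7-H3, 0.3004 to 0.366% with anti-PD1 and 0.166 to 0.277% with IgG. Reads on 1510 olfactory and vomeronasal receptor genes, which should be silent here, served as a background, at 40.4 to 198 CPM with anti-B7-H3, 78.3 to 280 with anti-PD1 and 765 to 4842 with IgG, counted outside the satellite genes. Per base of coding sequence the lowest member, Orc1, was 1.38 times that background in IgG replicate 3, and the median member 6.31 times, whereas in the antibody libraries the lowest member was at least 18.1 times. This background was also taken from every gene, an alternative added after the data were seen. The member median was then 0.04 with anti-B7-H3 against IgG, with 23 members positive. It was 0.18 with anti-PD1 against IgG, with 27 positive, and -0.12 between the antibodies. The median of all tested genes was 0.03 in both comparisons with IgG and 0.01 between the antibodies. The member median less that of all genes was 0.006 for anti-B7-H3 against IgG, in place of 0.12 before subtraction. For anti-PD1 against IgG it was 0.15, in place of 0.30. Between the antibodies it was -0.13 either way. Of 10 melanocyte genes, by which such a tumor might be known, 3 were tested: Mitf, at 4.24 to 9.65 TMM-scaled CPM over the 9 libraries, Gpnmb, at 4.14 to 13.8, and Kit, at 2.53 to 4.96. The pigment genes Tyr, Tyrp1, Dct, Pmel, Mlana and Slc45a2 each stayed at or under 1.84 in every library, and Sox10 at or under 4.14.

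**Figure D1:**
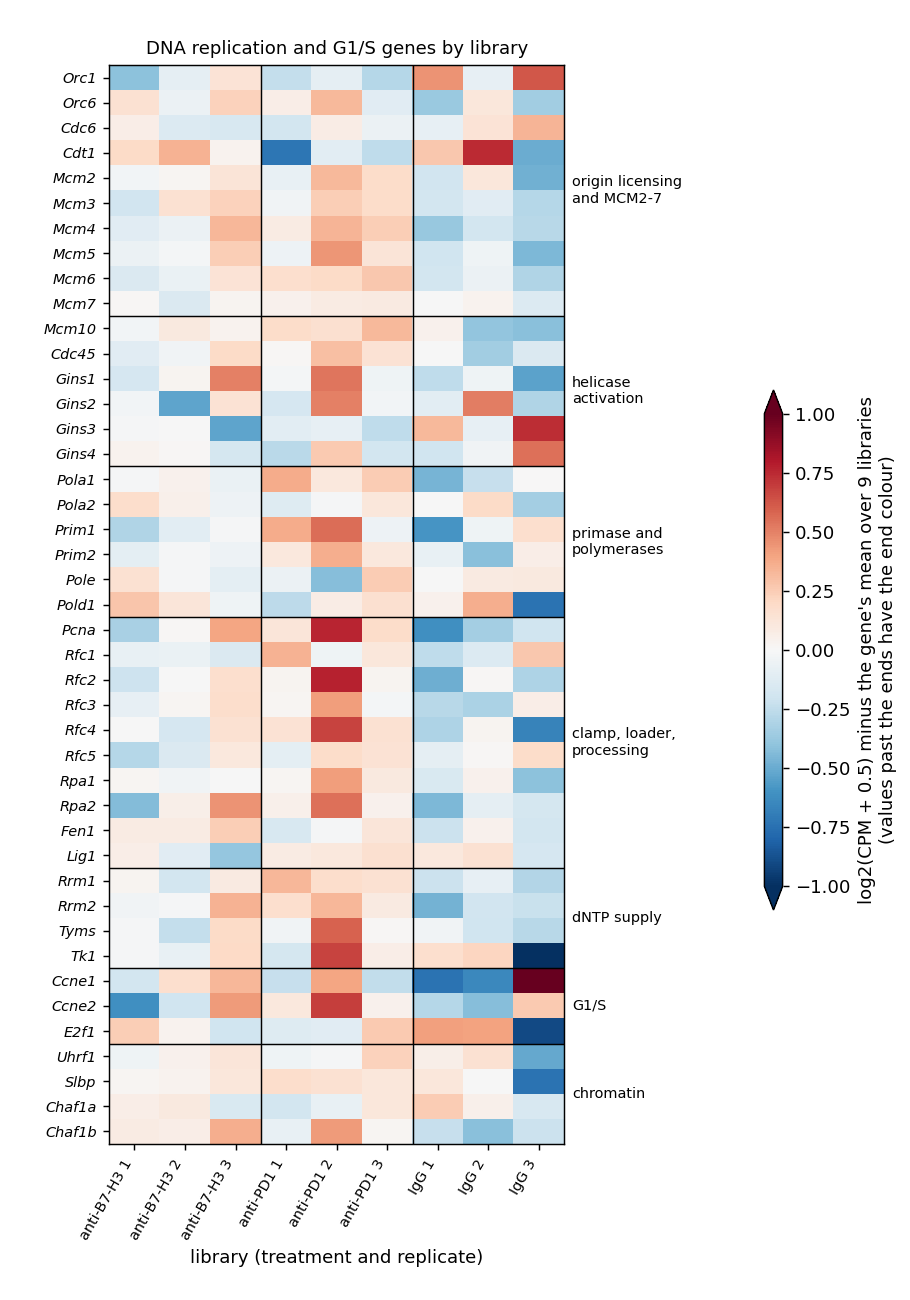
Each row is 1 of the 43 genes, grouped by role, and each column is 1 library; colour gives log2(TMM-scaled CPM + 0.5) minus the gene's mean over the 9 libraries, and 2 values lie past the ends of the scale, at -1.06 (Tk1, IgG 3) and 1.15 (Ccne1, IgG 3). Many rows are red in anti-PD1 replicate 2, and IgG replicate 3 holds the most extreme cells of both colours.

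Promoters show what these genes share beyond their names. RefSeq promoter windows on GRCm38.p6, which run from 250 bases before to 50 after an annotated start, matched 35 of the 43 members in 40 windows. Mcm4, Gins1, Gins2, Gins4, Prim2, Pole, Rfc2 and Ccne2 had no window. The E2F letters searched for were TTCCCGC, the second form TTGGCGC, the third form TTCGCGC and lastly TTGCCGC. Read on either strand, they were in 25 of the 40 windows (62.5%), against 9.57% of all 32851 windows and 16.7% of the 18 windows of mitosis genes. The letters TTTGAA of the CHR element, known from mitotic promoters, showed the opposite order: 4 of 40 member windows (10%), 13 of 18 mitosis windows (72.2%) and 17.9% of all. Mean GC content was 60.1% in the member windows, 60.1% in the mitosis windows and 53.8% in all. The 5 windows printed here belong to 4 members with the lowest p of their roles and to Cdt1, whose changes had the opposite sign, and they show how the letters vary among genes of a shared function. They run 5′ to 3′ on the gene's strand, and capitals mark the E2F letters. Pcna (chr2:132253131-132253430, minus strand) has 0 matches in this window, Rrm2 (chr12:24708004-24708303, plus strand) has 1, Chaf1b (chr16:93883651-93883950, plus strand) has 2, Cdt1 (chr8:122567765-122568064, plus strand) has 2 and Pola1 (chrX:93632106-93632405, minus strand) has 4.
Pcna: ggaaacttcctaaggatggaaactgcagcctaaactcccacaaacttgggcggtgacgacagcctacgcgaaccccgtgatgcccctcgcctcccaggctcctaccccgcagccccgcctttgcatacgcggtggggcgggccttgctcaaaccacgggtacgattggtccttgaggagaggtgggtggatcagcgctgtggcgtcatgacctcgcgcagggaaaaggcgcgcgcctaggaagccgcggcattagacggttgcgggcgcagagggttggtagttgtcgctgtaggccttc
Rrm2: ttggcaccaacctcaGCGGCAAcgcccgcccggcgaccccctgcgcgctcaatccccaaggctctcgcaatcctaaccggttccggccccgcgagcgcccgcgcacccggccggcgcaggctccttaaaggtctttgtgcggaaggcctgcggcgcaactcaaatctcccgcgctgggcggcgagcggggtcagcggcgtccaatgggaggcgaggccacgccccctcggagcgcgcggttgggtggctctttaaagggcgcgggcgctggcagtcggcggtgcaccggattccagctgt
Chaf1b: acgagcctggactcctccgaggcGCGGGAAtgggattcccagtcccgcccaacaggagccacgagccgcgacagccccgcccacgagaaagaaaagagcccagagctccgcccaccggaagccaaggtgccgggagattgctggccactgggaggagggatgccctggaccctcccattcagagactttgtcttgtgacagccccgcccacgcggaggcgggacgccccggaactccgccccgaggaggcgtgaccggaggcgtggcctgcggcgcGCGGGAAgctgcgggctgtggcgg
Cdt1: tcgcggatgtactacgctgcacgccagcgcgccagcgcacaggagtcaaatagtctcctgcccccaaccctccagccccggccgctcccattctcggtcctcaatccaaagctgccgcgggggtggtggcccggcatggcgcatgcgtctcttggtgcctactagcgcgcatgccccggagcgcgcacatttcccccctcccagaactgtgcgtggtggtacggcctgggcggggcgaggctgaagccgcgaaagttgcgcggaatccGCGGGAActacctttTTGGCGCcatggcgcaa
Pola1: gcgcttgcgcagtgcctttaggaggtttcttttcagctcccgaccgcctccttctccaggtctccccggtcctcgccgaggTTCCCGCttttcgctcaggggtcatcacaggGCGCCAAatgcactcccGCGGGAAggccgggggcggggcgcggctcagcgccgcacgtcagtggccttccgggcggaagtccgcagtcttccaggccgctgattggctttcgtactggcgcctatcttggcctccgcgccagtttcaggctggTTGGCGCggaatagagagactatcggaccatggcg

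Matches in the member windows lay mostly close to the start. A match is a description of letters, and a window with none says nothing of the factor. With anti-B7-H3 against IgG, the 22 members with the letters had a median change of 0.14 and the 13 without had 0.16. With anti-PD1 against IgG the medians were 0.26 with the letters and 0.30 without, and between the antibodies they were -0.10 with the letters and -0.14 without.

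**Figure D2:**
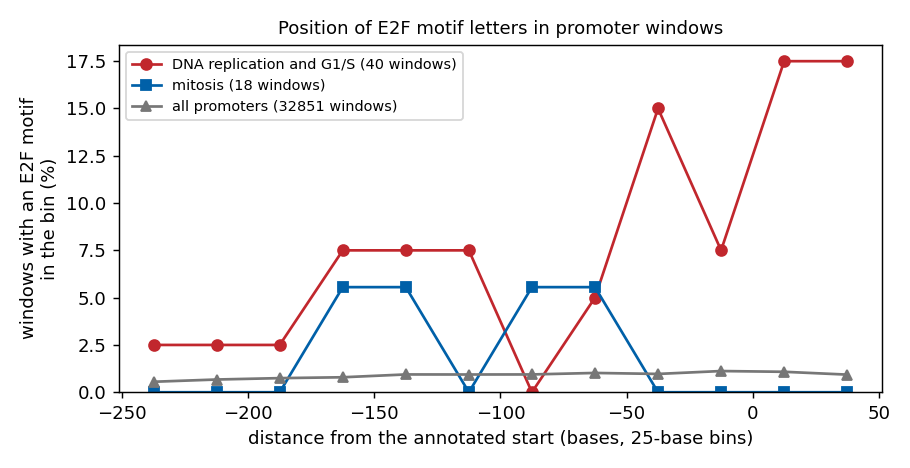
The horizontal axis is the distance from the annotated start in 25-base bins and the vertical axis the share of promoter windows with E2F letters centred in the bin, for the 40 member windows, 18 mitosis windows and all 32851. The member line is highest in the bins after the start, at 17.5%, where the line of all promoters is at 1.08 and 0.931%.

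Origin licensing and the MCM core comprise 10 members. ORC marks origins, CDC6 and CDT1 bring in the helicase, and MCM2 to MCM7 form its ring. Against IgG, 7 of 10 had positive changes with either antibody, with medians of 0.18 for anti-B7-H3 and 0.29 for anti-PD1, and 0 were called. Every one of the 6 ring genes was positive in both comparisons, at 0.00 to 0.35 for anti-B7-H3 and 0.11 to 0.51 for anti-PD1. Orc6 was positive too, at 0.28 for anti-B7-H3 and 0.27 for anti-PD1, while Orc1, Cdc6 and Cdt1 were negative in both. The ring gene nearest 0 was Mcm7, at 0.00 ± 0.15 (SE) for anti-B7-H3. With the receptor background taken off, Mcm6 (-0.03) and Mcm7 (-0.18) were negative with anti-B7-H3, and Mcm7 (-0.07) with anti-PD1. Mcm4 (ENSMUSG00000022673, chr16:15623897-15637400 on GRCm38) had 45.4, 47.2 and 61.8 TMM-scaled CPM with anti-B7-H3, 52.1, 62.4 and 58.4 CPM with anti-PD1 and 37.5, 43.2 and 40.4 with IgG. Every antibody library lay above every IgG library. The log2 fold change was 0.35 ± 0.18 (SE; adjusted p = 0.538) with anti-B7-H3 and 0.51 ± 0.18 (adjusted p = 0.173) with anti-PD1. Mcm2 (chr6:88883474-88898780) had 46.7, 48.2 and 52.1 CPM with anti-B7-H3, 45.0, 59.5 and 53.9 CPM with anti-PD1 and 41.6, 51.5 and 34.0 with IgG. Its groups overlapped, since IgG replicate 2 lay above 2 of the anti-B7-H3 libraries and 1 anti-PD1 library. The change against IgG was 0.20 ± 0.19 for anti-B7-H3 and 0.31 ± 0.19 for anti-PD1.

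Cdt1 (ENSMUSG00000006585, chr8:122568015-122573554), the loader that geminin inhibits, had changes of the opposite sign to the ring genes. It had 15.1, 16.9 and 13.5 CPM with anti-B7-H3, 7.79, 12.2 and 10.9 CPM with anti-PD1 and 15.9, 22.4 and 9.19 with IgG. All anti-B7-H3 libraries lay above all anti-PD1 libraries, while the IgG libraries overlapped both. With anti-PD1 the log2 fold change against IgG was -0.67 ± 0.28 (adjusted p = 0.236), and it was the only member below an unadjusted p of 0.05 on the lower side. Against anti-PD1, anti-B7-H3 stood at 0.55 ± 0.27 (adjusted p = 0.755). Cdc6 (chr11:98907801-98923940) had 9.77, 8.44 and 8.30 CPM with anti-B7-H3, 8.15, 9.83 and 8.94 CPM with anti-PD1 and 8.75, 10.3 and 11.9 with IgG, which overlap, and its change against IgG was -0.21 ± 0.19 for anti-B7-H3 and -0.18 ± 0.19 for anti-PD1. Orc1, the largest ORC subunit, averaged 3.41 ± 0.73 CPM with anti-B7-H3, 3.15 ± 0.27 with anti-PD1 and 4.90 ± 1.29 with IgG (SD, n = 3 each). Its IgG values rest on 27, 31 and 13 reads. With the receptor background taken off, its change with anti-B7-H3 moved to -0.01, against -0.46 without that step.

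Helicase activation takes in MCM10, CDC45 and the 4 GINS subunits, which join MCM2-7 to make the active helicase. Against IgG, 3 of 6 were positive with each antibody, with medians of 0.03 for anti-B7-H3 and 0.17 for anti-PD1. Mcm10 (chr2:4989714-5012791), which helps start the loaded helicase, had 12.2, 13.4 and 12.8 CPM with anti-B7-H3, 14.2, 14.0 and 15.8 CPM with anti-PD1 and 12.8, 9.38 and 9.19 with IgG. The anti-PD1 libraries lay above all others, while anti-B7-H3 and IgG overlapped through IgG replicate 1. Its log2 fold changes were 0.48 ± 0.19 with anti-PD1 against IgG (adjusted p = 0.209), 0.28 ± 0.19 with anti-B7-H3 against IgG (adjusted p = 0.648) and -0.19 ± 0.17 between the antibodies (adjusted p = 0.824). Cdc45 averaged 17.0 ± 1.98 CPM with anti-B7-H3, 18.8 ± 1.97 with anti-PD1 and 14.98 ± 1.84 with IgG. The GINS genes did not share a sign: against IgG, Gins1, Gins2, Gins3 and Gins4 stood at 0.43, -0.28, -0.62 and -0.13 for anti-B7-H3 and at 0.47, 0.00, -0.59 and -0.13 for anti-PD1. The GINS genes were low, and Gins3 had only 10, 12 and 6 reads in the IgG libraries, so the 95% interval of its anti-B7-H3 change ran from -1.59 to 0.36.

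Primase and the replicative polymerases had no member called. DNA polymerase alpha and primase lay down the primers that polymerases delta and epsilon extend. Of 6 members, 5 were positive against IgG with each antibody, with medians of 0.09 for anti-B7-H3 and 0.19 for anti-PD1. Pola1 (ENSMUSG00000006678, chrX:93304767-93632155), the catalytic subunit of polymerase alpha, had 47.4, 49.4 and 45.5 CPM with anti-B7-H3, 61.96, 51.4 and 57.1 CPM with anti-PD1 and 34.4, 40.8 and 47.8 with IgG. The anti-PD1 libraries lay above all 6 others, and IgG replicate 3 lay among the anti-B7-H3 libraries. With anti-PD1 against IgG the log2 fold change was 0.48 ± 0.17 (adjusted p = 0.183). The same comparison passed the threshold with DESeq2 (0.49, adjusted p = 0.0465) and with limma-voom and quality weights (0.65, adjusted p = 0.0365). These 2 settings called 181 and 152 of all 12980 genes higher. Over all alternatives apart from library totals the adjusted p of Pola1 ran up to 0.428. Prim1 (chr10:128015168-128030037), the catalytic primase subunit, had 7.47, 8.61 and 9.25 CPM with anti-B7-H3, 12.2, 14.0 and 8.98 CPM with anti-PD1 and 6.03, 9.04 and 10.6 with IgG. Its groups overlapped, and anti-B7-H3 stood at -0.47 ± 0.23 against anti-PD1 (adjusted p = 0.755), the lowest change of any member in that comparison. Pole, the leading-strand polymerase, averaged 41.4 ± 3.75 CPM with anti-B7-H3, 39.4 ± 9.23 with anti-PD1 and 42.7 ± 1.60 with IgG.

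The sliding clamp, its loader, single-strand binding and Okazaki fragment processing held the member with the largest change, Pcna. PCNA encircles DNA and tethers the polymerases, RFC opens the clamp, RPA covers single strands, and FEN1 and LIG1 trim and join lagging-strand fragments. Against IgG, 10 of 10 members were positive with anti-PD1, with a median of 0.35, and 7 of 10 with anti-B7-H3, with a median of 0.24; 0 were called. Pcna (ENSMUSG00000027342, chr2:132249162-132253314) had 40.5, 51.3 and 67.0 CPM with anti-B7-H3, 55.2, 86.2 and 57.6 CPM with anti-PD1 and 33.1, 40.0 and 44.1 with IgG. Every anti-PD1 library lay above every IgG library, and anti-B7-H3 overlapped both. The log2 fold change was 0.77 ± 0.24 with anti-PD1 against IgG, with a 95% interval from 0.24 to 1.30 and an adjusted p = 0.142. Over the alternatives apart from library totals, the adjusted p ran from 0.0395 with no filter on low counts to 0.362. With no filter, 264 of all 21641 genes were called higher in that comparison. With anti-B7-H3 the change of Pcna was 0.45 ± 0.24 against IgG (adjusted p = 0.565) and -0.33 ± 0.24 against anti-PD1 (adjusted p = 0.798). Rfc4 (chr16:23113943-23127737), a small loader subunit, had 6.85, 6.06 and 7.69 CPM with anti-B7-H3, 7.65, 11.3 and 7.69 CPM with anti-PD1 and 5.44, 7.03 and 4.14 with IgG. Its IgG values rest on 28, 63 and 9 reads. Its anti-PD1 libraries lay above IgG, with a change of 0.62 ± 0.25 (adjusted p = 0.223), and anti-PD1 replicate 2 lay well above the other 2. The same library was the highest of all 9 for Pcna, Rfc2, Rfc3, Rfc4, Rpa1 and Rpa2. Fen1 was the only member of this group whose anti-B7-H3 libraries all lay above IgG, at 19.0 ± 1.31 CPM with anti-B7-H3 and 15.9 ± 1.62 with IgG (log2 fold change 0.25 ± 0.17, adjusted p = 0.660), and Lig1 stood at -0.18 ± 0.17 in that comparison.

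Deoxynucleotide supply was positive in all 4 members against IgG, with medians of 0.17 for anti-B7-H3 and 0.40 for anti-PD1. Ribonucleotide reductase, made of RRM1 and RRM2, makes deoxynucleotides from ribonucleotides, TYMS makes thymidylate, and TK1 salvages thymidine. Rrm2 (ENSMUSG00000020649, chr12:24708241-24714146), the subunit that is made in S phase and then degraded, had 21.5, 21.8 and 28.1 CPM with anti-B7-H3, 24.8, 27.9 and 23.4 CPM with anti-PD1 and 15.8, 19.2 and 18.8 with IgG. Every antibody library lay above every IgG library, and the antibody groups overlapped. The log2 fold change was 0.41 ± 0.18 for anti-B7-H3 (adjusted p = 0.453) and 0.50 ± 0.18 for anti-PD1 (adjusted p = 0.186). Between the antibodies the difference was -0.09 ± 0.17, with a 95% interval from -0.47 to 0.29. Rrm1 averaged 89.5 ± 8.68 CPM with anti-B7-H3, 106 ± 7.19 with anti-PD1 and 79.0 ± 5.75 with IgG, and its anti-PD1 libraries lay above all others (0.42 ± 0.17 against IgG, adjusted p = 0.211). Tk1 spread widely within IgG, from 6.43 CPM in replicate 3 to 16.3 in replicate 2.

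The 3 G1/S regulators gave no common direction. Cyclins E1 and E2 activate CDK2 at the G1/S boundary, and E2F1 is an activator of the replication genes. Ccne2 (chr4:11191351-11204779) had 4.55, 6.22 and 9.87 CPM with anti-B7-H3, 7.79, 11.9 and 7.45 CPM with anti-PD1 and 5.83, 5.25 and 8.73 with IgG, and its groups overlapped. Its log2 fold change was 0.14 ± 0.34 for anti-B7-H3 and 0.53 ± 0.34 for anti-PD1 (adjusted p = 0.422). Ccne1 (chr7:38097984-38107534) had 2.81, 3.72 and 4.22 CPM with anti-B7-H3, 2.69, 4.44 and 2.67 CPM with anti-PD1 and 1.75, 1.90 and 7.81 with IgG. IgG replicate 3 was the highest of all 9 libraries and the other 2 IgG libraries the lowest, and these IgG values rest on 9, 17 and 17 reads. E2f1 (chr2:154559407-154569892) had 14.9, 12.8 and 10.8 CPM with anti-B7-H3, 11.4, 11.5 and 15.02 CPM with anti-PD1 and 16.7, 16.6 and 6.43 with IgG. Here IgG replicate 3 was the lowest of all libraries, and the change against IgG was -0.12 ± 0.29 for anti-B7-H3 and -0.13 ± 0.29 for anti-PD1.

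Chromatin duplication was led by Chaf1b. CHAF1A and CHAF1B are subunits of CAF-1, which places histones behind the fork, UHRF1 brings the maintenance methyltransferase to new DNA, and SLBP binds the stem-loop of histone mRNA. Of the 4, 3 were positive against IgG with each antibody, with medians of 0.15 for anti-B7-H3 and 0.20 for anti-PD1. Chaf1b (ENSMUSG00000022945, chr16:93883901-93906115) had 8.59, 8.47 and 10.5 CPM with anti-B7-H3, 7.65, 11.03 and 8.20 CPM with anti-PD1 and 6.81, 5.92 and 6.89 with IgG. Every antibody library lay above every IgG library. The IgG values rest on 35, 53 and 15 reads. The log2 fold change was 0.51 ± 0.22 for anti-B7-H3 (adjusted p = 0.423) and 0.47 ± 0.22 for anti-PD1 (adjusted p = 0.275). Its partner Chaf1a averaged 26.4 ± 2.53 CPM with anti-B7-H3, 25.4 ± 2.72 with anti-PD1 and 27.3 ± 3.94 with IgG. Uhrf1 averaged 67.5 ± 3.86 CPM with anti-B7-H3, 68.5 ± 7.28 with anti-PD1 and 62.5 ± 14.5 with IgG.

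**Figure D3:**
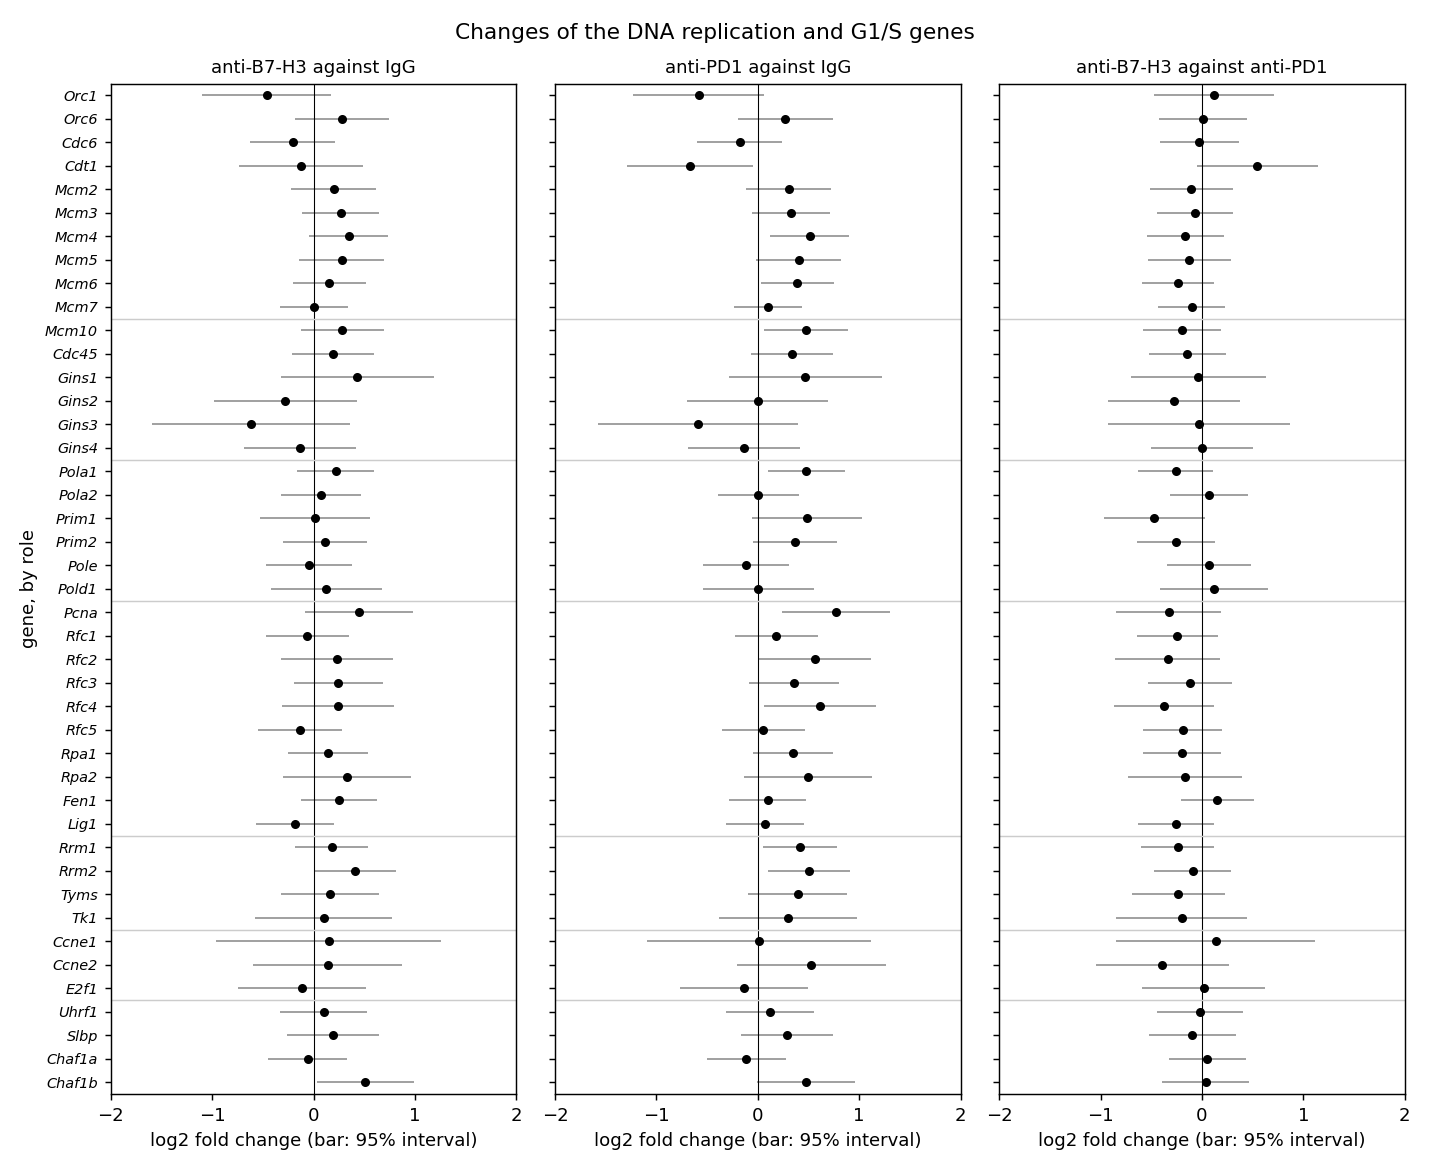
Points are log2 fold changes of the 43 genes from edgeR in the 3 comparisons, bars their 95% intervals, and grey lines separate the roles. With anti-PD1 against IgG most points lie right of 0 with Pcna at 0.77, while Orc1, Gins3 and Cdt1 lie left, and no member passed the adjusted threshold in any panel.

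The median member was highest in 1 anti-PD1 library. Relative to each gene's mean over the 9 libraries, it stood at -0.02, -0.01 and 0.13 on the log2 scale with anti-B7-H3, at -0.02, 0.26 and 0.11 with anti-PD1 and at -0.18, -0.04 and -0.22 with IgG. All IgG libraries lay below all antibody libraries. Without anti-PD1 replicate 2 the median against IgG was 0.22, and that of anti-B7-H3 against anti-PD1 was -0.02 with 18 members positive, in place of -0.12 with 12. Without IgG replicate 2 the median with anti-B7-H3 was 0.23, and without anti-B7-H3 replicate 3 it was 0.10, with -0.19 against anti-PD1. In bulk tissue, fewer cells of a type and less RNA per cell cannot be told apart.

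Other genes of the cell cycle were read beside the members. A list of 41 further replication genes (such as the other ORC subunits, Cdc7 and Timeless) had 0 called in any comparison. Of these, 19 were positive with anti-B7-H3 against IgG (median -0.01), 26 with anti-PD1 against IgG (0.19) and 14 with anti-B7-H3 against anti-PD1 (-0.14). With anti-PD1 against IgG, Orc5, another ORC subunit, stood at 0.55 ± 0.20 (adjusted p = 0.192), and Recql4, a helicase used in firing, at -0.51 ± 0.24 (adjusted p = 0.281). With anti-B7-H3 against IgG the smallest p belonged to Mcmbp, which binds MCM subunits, at 0.34 ± 0.20 (adjusted p = 0.584), then Atad5, which unloads PCNA, at -0.32 ± 0.20, and the S phase kinase gene Cdc7 at 0.33 ± 0.21. Rpa3, the smallest RPA subunit, stood at -0.99 ± 0.30 for anti-B7-H3 against anti-PD1 (adjusted p = 0.749), with 3.32, 3.94 and 4.73 CPM for anti-B7-H3 and 7.14, 11.1 and 5.69 for anti-PD1.

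Mitosis genes stood highest in the anti-PD1 libraries. Of these, 22 of 22 were positive with anti-PD1 against IgG (median 0.33; 50.4% of all genes), 12 of 22 with anti-B7-H3 against IgG (0.05; 53.3% of all) and 1 of 22 with anti-B7-H3 against anti-PD1 (-0.36; 51.1% of all). In every library, 11 lay above IgG with anti-PD1, where 11.1% of all genes did, and 12 lay lower with anti-B7-H3 than with anti-PD1, where 7.89% did. Of the 22, 0 were called in any comparison. The median mitosis gene lay at -0.10, -0.15 and -0.07 in the anti-B7-H3 libraries, 0.22, 0.29 and 0.23 in the anti-PD1 libraries and -0.12, -0.11 and -0.12 in the IgG libraries. All 3 anti-PD1 libraries lay above the other 6. Ccna2, the cyclin of S phase and G2, had 45.3, 44.7 and 54.0 CPM with anti-B7-H3, 68.4, 76.6 and 62.3 CPM with anti-PD1 and 41.8, 49.1 and 46.9 with IgG (0.59 ± 0.17 with anti-PD1 against IgG, adjusted p = 0.118; -0.53 ± 0.17 between the antibodies, adjusted p = 0.749). Bub1, a checkpoint kinase, stood at 0.65 ± 0.22 and Cdk1, the mitotic kinase, at 0.71 ± 0.24 with anti-PD1 against IgG. Nusap1, a spindle protein, and Ccnb2, a mitotic cyclin, stood at -0.50 ± 0.16 and -0.51 ± 0.18 between the antibodies. With anti-B7-H3 against IgG, Birc5, a subunit of the chromosomal passenger complex, stood at -0.44 ± 0.25, Cdk1 at 0.39 ± 0.24 and Prc1, a bundler of spindle microtubules, at -0.21 ± 0.19. Whether the mitosis genes differ from the members in any comparison was not tested.

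Genes that control G1/S from upstream showed no shared direction. Of 29 listed, 28 were tested, and 0 were called. With anti-B7-H3 against IgG 18 were positive (median 0.09), with anti-PD1 against IgG 13 (-0.09) and with anti-B7-H3 against anti-PD1 17 (0.05). Tfdp2, a partner of E2F proteins, had 6.75, 6.33 and 6.99 CPM with anti-B7-H3, 10.7, 8.84 and 8.67 CPM with anti-PD1 and 5.44, 6.25 and 6.89 with IgG. Its anti-PD1 libraries lay above all others (0.62 ± 0.20 against IgG, adjusted p = 0.143). E2f7, a repressor of E2F targets, stood at -0.60 ± 0.25 for anti-B7-H3 (adjusted p = 0.418) and -0.88 ± 0.26 for anti-PD1 (adjusted p = 0.122) against IgG. It was below IgG in every antibody library, but anti-B7-H3 replicate 1 and IgG replicate 2 were nearly tied, at 9.818 and 9.825 CPM. Between the antibodies, Cdkn1b, the inhibitor p27, stood at -0.56 ± 0.22 and Cdk6 at 0.53 ± 0.26, and Ccnd1 stood at 0.31 ± 0.20 with anti-B7-H3 against IgG. Mybl2, which joins the complex that drives mitotic genes, had the largest change of all these lists, at -3.05 ± 0.64 for anti-B7-H3 (adjusted p = 0.0694) and -3.12 ± 0.64 for anti-PD1 (adjusted p = 0.0627), both against IgG. Its reads fell mostly on a 789-base transcript, with 2531 to 8299 reads in every library. The 2115-base transcript held 240, 326 and 405 reads with anti-B7-H3, 111, 242 and 222 reads with anti-PD1 and 57.0, 108 and 19.0 with IgG. The summed value is thus mostly that of the short transcript. These reads are not scaled for depth. Outside the satellite genes the libraries held 7239044 to 14408350 reads with anti-B7-H3, 5326276 to 9583684 with anti-PD1 and 1252540 to 3546706 with IgG. A change of the 2115-base transcript alone was not tested.

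Markers of other cells moved with the libraries too, and their part in the replication values was not tested. All 11 macrophage genes were tested, and their summed level was 756, 680 and 1212 CPM with anti-B7-H3, 577, 1336 and 524 CPM with anti-PD1 and 633, 555 and 261 with IgG. The 2 highest sums stand in anti-PD1 replicate 2 and anti-B7-H3 replicate 3, which also hold the highest median member of their groups. Elsewhere the orders differ. In IgG the highest sum stands in replicate 1 (median member -0.18) and the highest median member in replicate 2 (-0.04). With anti-PD1, replicate 3 has a lower sum than replicate 1 but a higher median member (0.11 against -0.02). With anti-B7-H3, replicate 2 likewise stands to replicate 1 (-0.01 against -0.02). The 10 skeletal muscle genes summed to 795, 24.7 and 3571 CPM with anti-B7-H3, 236, 1649 and 1288 CPM with anti-PD1 and 112, 175 and 190 with IgG. The 7 erythroid genes summed to 20.9 to 56.2 CPM with anti-B7-H3, 23.1 to 41.9 with anti-PD1 and 64.7 to 360 with IgG, and the 10 keratinocyte genes, of which 3 were tested, to 1.26 to 2.61 with anti-B7-H3, 1.33 to 3.57 with anti-PD1 and 14.2 to 39.5 with IgG. Both were highest in IgG replicate 3, which had the lowest median member. T cell genes summed to 16.3, 25.9 and 25.1 CPM with anti-B7-H3, 10.3, 15.7 and 19.4 CPM with anti-PD1 and 24.7, 9.04 and 13.8 with IgG. Fibroblast genes summed to 5727 to 9109 CPM with anti-B7-H3, 5260 to 6790 with anti-PD1 and 3029 to 8046 with IgG. Most of each sum lies on Col1a2 and Col3a1. With anti-PD1 against IgG, 7 of the 10 fibroblast genes were positive, as were 50.4% of all genes, and 0 were called. At an unadjusted p under 0.05 in edgeR's test, 3 were higher and 0 lower, where 7.68% and 10.9% of all genes were. Endothelial genes summed to 64.4 to 117 CPM with anti-B7-H3, 87.8 to 96.2 with anti-PD1 and 81.1 to 103 with IgG. The 10 melanocyte genes summed to 14.2 to 20.2 CPM with anti-B7-H3, 14.5 to 20.2 with anti-PD1 and 20.0 to 35.4 with IgG. The receptor background was not taken from any of these sums. It was far higher with IgG (765 to 4842 CPM) than with the antibodies (40.4 to 280). It was highest in IgG replicate 3, as were the keratinocyte and melanocyte sums. How much of these low sums is background was not tested.

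Levels can be compared between genes only per length. On the scale of TMM-scaled CPM per kilobase of effective length, averaged over the 9 libraries, Pcna was the most abundant member at 86.8, ahead of Uhrf1 at 51.4, Rrm1 at 42.4, Mcm7 at 38.5 and Mcm6 at 37.6. Pcna was the highest member in 8 of 9 libraries, and in IgG replicate 1 it stood at 56.8, under Uhrf1 at 59.7. The lowest members were Mcm10 at 5.10, Gins3 at 3.32 and Orc1 at 1.63. Orc1 ranged from 1.13 to 2.58 over the libraries and Gins3 from 1.96 to 6.23, so even these neighbours overlap. Subunits of a complex did not have equal mRNA. Within MCM2-7 the highest subunit was 1.81 to 3.21 times the lowest in a library, with Mcm6 or Mcm7 highest in all 9. In the RFC loader Rfc4 was lowest in all 9 libraries, with ratios of 2.17 to 4.82. In GINS, Gins3 was lowest in 8 of 9 libraries and Gins1 in IgG replicate 3, with ratios of 2.87 to 6.80. In ribonucleotide reductase Rrm1 was 1.55 to 2.36 times Rrm2 in every library. Chaf1a and Chaf1b differed by at most 1.27 times except in IgG replicates 2 and 3, where Chaf1a was 3.11 and 2.85 times Chaf1b. In those IgG libraries all Chaf1b reads lay on its 1719-base transcript. Every other library also had Chaf1b reads on transcripts of 105 to 290 bases, which raise its level per kilobase. The near equality of Chaf1a and Chaf1b there rests in part on these short transcripts.

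**Figure D4:**
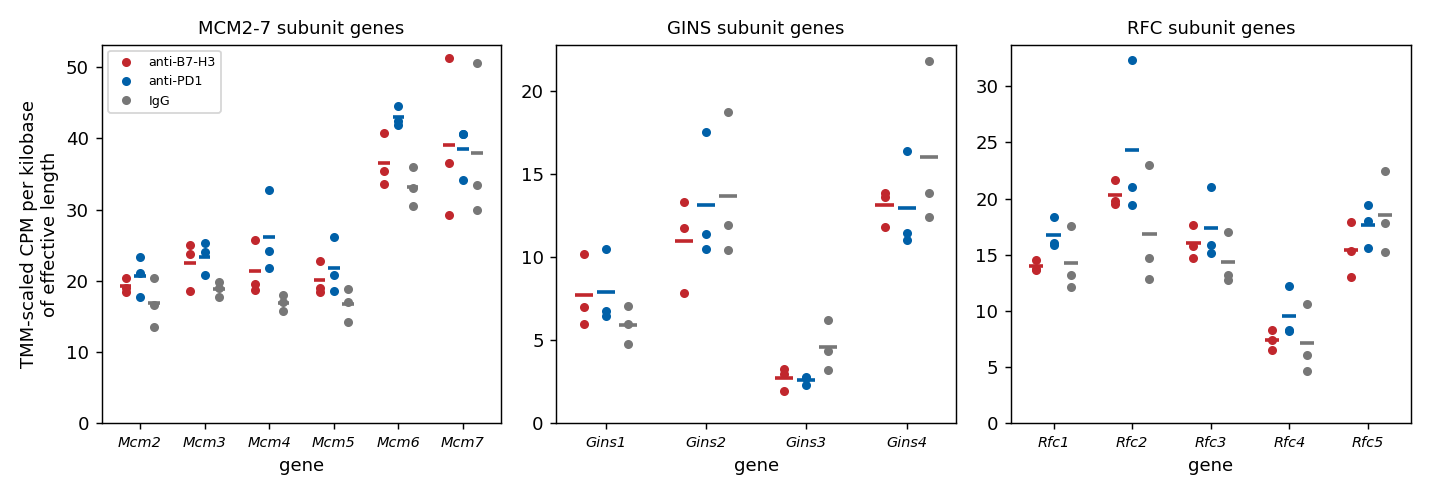
TMM-scaled CPM per kilobase of effective length for the subunit genes of MCM2-7, GINS and RFC in each library (points), with a line at the mean of 3 libraries, for anti-B7-H3, anti-PD1 and IgG. Mcm6 and Mcm7 lie above the other ring genes, Gins3 is low in every group, and Rfc4 is the lowest RFC gene in every library.

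Most members are read from 1 transcript. Of the 43, 14 have a single listed transcript, and in 26 of the other 29 the leading transcript held more than 80% of the reads over all libraries. The exceptions are Orc6, Rfc1 and E2f1, whose leading transcripts held 60.02%, 41.7% and 72.4%. Values per length move with this split where reads sit on short fragments, as for Uhrf1, Mcm7 and Chaf1b above. The per-kilobase level of Ccne1 in IgG replicate 3 was 18.1, against 3.37 to 5.98 in the other 8 libraries. In IgG replicate 3, 9.76% of the Ccne1 reads lay on a 210-base transcript, and in IgG replicate 1, 11.1% did. The summed Ccne1 level was also highest in IgG replicate 3, at 7.81 CPM. What raised the level per kilobase there was not tested. Summed counts, on which the tests rest, do not depend on the split.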

How the data were processed

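Per the labels' protocols, total RNA of the 9 tumor libraries was depleted of ribosomal RNA. Per the file headers, each deposited table lists estimated counts per transcript, which are expected counts with no normalization, TPM made by the authors, and the effective length, another measure that serves here only as the divisor of levels per kilobase. The deposited TPM values were not used. The submitters' processing notes name FastQC 0.11.8 and GRCm38; no quantifier is given in the sources used here. By identifier, 57473 of 58083 transcripts matched GENCODE M21. For 92.2% of the 57362 that have a coding sequence, its length is the length listed, so UTRs are not part of these values. Estimated counts were added up per gene, rounded, and then tested with edgeR 4.0.16 in R 4.3.3 (TMM, filterByExpr, robust quasi-likelihood fit of all 9 libraries, group as the only term), with Benjamini-Hochberg adjustment over 12980 genes and a threshold of 0.05. The biological coefficient of variation was 28.5%. Changes are relative to the typical gene, on which TMM centres. SE is the log2 fold change divided by the root of its F value, and SDs are over 3 libraries. The test was tried on simulated data first.

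Levels per kilobase were put on the TMM scale after the data were seen, in place of a scaling to a fixed total outside the satellite genes, since short background genes take part of the IgG totals; the order of genes within a library is the same. Seed transcripts were those that repeat 15-base words at the 234-base period of the mouse major satellite. The 12 satellite genes have a transcript with more than 30% of its 15-base words among the words that recur in the seeds. Alternatives were DESeq2 1.42.0 and its size factors, limma-voom 3.58.1 with quality weights, library totals, satellite genes removed first, other filters, only the libraries compared, the replicate number as a block, each library left out, and, added later, the receptor background subtracted.

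The members and all gene lists were chosen with earlier results of these data known. Values in every library are given for the 4 members with the smallest p of each comparison, the smallest p of each of 7 roles, and Pcna, Mcm2, Rrm2, Ccne1, Ccne2, E2f1 and Cdc6, and for other lists up to 3 genes per comparison are named. Others are given as ranges or named after their values were seen. A result for 1 gene that this rule names is not reported here.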

Additional observations from a re-analysis of the deposited data

How the results depend on the processing

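With scaling by library totals, in which the satellite reads count in full, 43 members were called higher with each antibody against IgG. So were most genes: 12462 of all 12980 in the anti-B7-H3 comparison, while the anti-PD1 comparison gave 12293. The member median was 3.50 with anti-B7-H3, where all genes stood at 3.37. For anti-PD1 it was 3.44, where they stood at 3.15. Between the antibodies the median was then 0.0685, where all genes stood at 0.20. Members that were negative under TMM turned positive and were called there. With anti-B7-H3 these were Orc1 (2.96), Cdc6 (3.12), Cdt1 (3.13), Gins2 (2.98), Gins3 (2.76), Gins4 (3.22), Pole (3.30), Rfc1 (3.33), Rfc5 (3.23), Lig1 (3.13), E2f1 (3.16) and Chaf1a (3.29). With anti-PD1 they were Orc1 (2.63), Cdc6 (2.98), Cdt1 (2.43), Gins2 (3.09), Gins3 (2.60), Gins4 (3.05), Pole (3.05), E2f1 (2.99) and Chaf1a (3.07). With no filter on low counts the median was 0.39 with anti-B7-H3, against 0.51 with anti-PD1. All 21641 genes tested in that setting had a median of -0.04 for anti-B7-H3, against -0.19 for anti-PD1. There 1 member, Pcna at 0.99, was called higher with anti-PD1, and the cause was not tested. DESeq2 and limma-voom with quality weights each called 1 member higher with anti-PD1, Pola1. Of all 12980 genes, they called 181 and 152 higher in that comparison. With the receptor background subtracted the median was 0.0403 with anti-B7-H3, and it was 0.182 with anti-PD1. All genes stood at 0.03 in both of these comparisons. The other alternatives called 0 members. Leaving out single libraries gave medians of 0.10 to 0.23 with anti-B7-H3 and 0.22 to 0.41 with anti-PD1 against IgG, and -0.19 to -0.02 between the antibodies, with 0 members called. Apart from library totals, 23, 15 and 18 of 43 members changed sign under at least 1 of the other alternatives, in the comparisons of anti-B7-H3 with IgG, anti-PD1 with IgG and anti-B7-H3 with anti-PD1. The stricter filter kept 41 members.

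Counts of all genes called depend more on the setting: with the main test 1 was higher and 78 lower with anti-B7-H3, and 1 higher and 52 lower with anti-PD1, whereas DESeq2 gave 26 and 476, and 181 and 641. What the replicate numbers share is not stated. Deviations of same-numbered libraries from their group means correlated at -0.32 to 0.18. With 3 libraries per group these values cannot decide whether the numbers pair the samples. With the replicate number as a block the medians were 0.17, 0.32 and -0.11 in the same 3 comparisons, and 0 members were called. The IgG libraries hold the fewest member reads, from 2075, which limits both comparisons with IgG.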
